A study of Mus musculus with 24 samples.

Results

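The genes described here are 9 genes that build new muscle fibres: the fusion proteins Mymk and Mymx, the satellite cell transcription factor Pax7, the myogenic regulatory factors Myf5, Myod1, Myog and Myf6, and the surface proteins Cdh15 and Megf10. They were chosen by symbol, as 9 of the 25369 genes listed for each library, and all 9 were among the 14789 genes with enough reads to be tested. Transcripts were counted in the left quadriceps of mice aged 25 weeks, 3 libraries per group. The mice were wild type (WT) or carried Lama2-CMD, a model of congenital muscular dystrophy with a mutation in Lama2, which encodes a laminin subunit that anchors fibres to their surrounding matrix. The genotypes were compared within 4 strains: B6 stands for C57BL/6J and D2 for DBA/2J, while 67 and 87 are strains labelled CMD-67 and CMD-87 and called BXD-67 and BXD-87 in the series' design text. There are thus 8 groups, a WT and a CMD group on each background, and no treatment is named. The allele behind Lama2-CMD is not given in the sources used here, and no transgene, Cre or pooling of animals is named. Libraries are named by their numbers from 1 to 24.

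Adult muscle is repaired by satellite cells, stem cells that lie between a fibre and its basement membrane and are marked by Pax7. When they are activated they express Myf5 and Myod1, divide, then switch on Myog, leave the cell cycle and fuse with each other or with a fibre, for which the membrane proteins encoded by Mymk (myomaker) and Mymx (myomixer) are needed. Myf6 is the member of the MyoD family kept on in mature fibres, Cdh15 is M-cadherin, an adhesion protein of satellite cells and myoblasts, and Megf10 is a receptor of satellite cells tied to their proliferation.

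The MyoD family binds the sequence CANNTG, the E box. Promoter sequences of 4 of the 9 genes (Pax7, Myf5, Myog and Cdh15) were matched by symbol in the RefSeq table for GRCm38.p6, each with 250 bases before and 50 after the annotated start. Myog and Cdh15 are printed because both moved between the genotypes, in opposite directions, and both have E boxes in this window. Capitals mark matches to CANNTG, which reads the same on both strands, and the sequences run 5′ to 3′ in the direction of the gene (Myog chr1:134289754-134290053, plus strand; Cdh15 chr8:122848124-122848423, plus strand).
Myog: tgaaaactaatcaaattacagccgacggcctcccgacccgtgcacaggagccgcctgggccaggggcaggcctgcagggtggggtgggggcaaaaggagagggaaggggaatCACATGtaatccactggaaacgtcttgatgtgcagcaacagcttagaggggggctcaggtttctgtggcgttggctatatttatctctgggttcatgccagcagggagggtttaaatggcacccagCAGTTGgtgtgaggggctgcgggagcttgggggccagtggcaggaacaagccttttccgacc
Cdh15: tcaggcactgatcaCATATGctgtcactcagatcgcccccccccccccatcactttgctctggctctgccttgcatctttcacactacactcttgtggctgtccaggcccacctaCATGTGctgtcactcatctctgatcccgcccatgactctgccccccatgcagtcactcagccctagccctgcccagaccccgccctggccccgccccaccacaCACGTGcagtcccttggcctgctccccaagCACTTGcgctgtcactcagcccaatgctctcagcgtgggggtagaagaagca
With -1 as the last base before the start, Myog had E boxes beginning at -138 and -12. Cdh15 had 4 E boxes, beginning at -236, -135, -32 and -2. CANNTG was not among the letters of the Pax7 and Myf5 windows. An E box is common: 72.3% of 32851 promoters of this length held CANNTG. These matches describe letters and say nothing of binding.

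Total exon reads ran from 32292613 to 51715975 per library, and all reads of the 9 genes were uniquely placed. Lama2 itself was read at 23.8 to 50.3 read counts scaled to library size (CPM) in WT and 12.9 to 33.8 CPM in CMD libraries, ranges that overlap over all strains. Within strains, CMD libraries were all lower in B6 (16.04 to 23.9 against 36.5 to 50.3 CPM) and 87 (12.9 to 19.5 against 27.4 to 35.8 CPM). The 8 markers of muscle fibres summed to between 92020 and 204600 CPM, so fibre transcripts were abundant in every library. Sex labels of 4 D2 libraries went against their reads of 4 Y-linked genes: WT libraries 19 and 21, labelled male, had 1 and 0 such reads, and CMD libraries 22 and 24, labelled female, had 4927 and 4858. In the other strains label and Y-linked reads were the same. Males were libraries 1 of B6 WT, 4 and 6 of B6 CMD and 7 of 67 WT. In 87 they were 13 of WT and 17 and 18 of CMD. No 67 CMD library was male, so sex was not balanced between the genotypes in any strain. Because of the 4 conflicting labels no sex term was used, and D2 results are given with and without those 4. Without them, library 20 was the only D2 WT library and library 23 the only D2 CMD library. For the genes that did not pass in D2 either way, the log2 fold change without them was 1.29 for Myod1 (adjusted p = 0.358), -0.33 for Myf5 (0.788), -0.46 for Pax7 (0.763), -0.31 for Cdh15 (0.614) and 1.89 for Megf10 (0.265). Library 16 (87 CMD) stood apart from its group, and library 23 (D2 CMD) had the highest Mymk, Mymx, Myod1 and Myog levels of all libraries. Both are treated the same way. Over all genes, library 22 was the D2 CMD library furthest from the others. The chi-square of the counts per gene was 257.7 for 22 and 23, 305.3 for 22 and 24 and 197.0 for 23 and 24.

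Mymk and Mymx were close to silent in WT muscle and present in every CMD library. WT libraries held 0 to 16 Mymk reads and 0 to 12 Mymx reads. In B6, Mymk had 0, 3 and 2 reads in the WT libraries and 117, 248 and 249 in the CMD libraries. The corresponding reads were 0, 5 and 11 against 397, 399 and 327 in 67, and 0, 2 and 14 against 34, 262 and 265 in 87. In D2 they were 1, 6 and 16 against 213, 1798 and 913. No CMD library of any strain overlapped a WT library of its strain, and the lowest CMD library overall was library 16. As means, Mymk went from 0.0472 ± 0.0450 to 5.01 ± 1.73 CPM in B6, from 0.146 ± 0.150 to 8.82 ± 0.696 in 67, from 0.115 ± 0.155 to 4.56 ± 3.32 in 87 and from 0.167 ± 0.157 to 17.2 ± 13.9 in D2 (SD, n = 3). For the WT libraries without a Mymk read (1, 7 and 13), 0 reads allow a level of up to 3 counts, or 0.0800 to 0.101 CPM in libraries 7 and 1 and 0.0715 CPM in library 13.

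CMD was compared with WT by edgeR's quasi-likelihood test over all tested genes, with Benjamini-Hochberg adjusted p-values and a threshold of 0.05. The log2 fold change of Mymk was 6.60 ± 1.17 in B6 (SE, adjusted p = 0.00145), 5.89 ± 1.01 in 67 (adjusted p = 0.000681), 5.19 ± 0.9997 in 87 (adjusted p = 0.00156), while D2 had 6.64 ± 1.0006 (adjusted p = 0.000303). From summed reads the ratio of CMD to WT was 102.8 in B6, 60.5 in 67, 36.4 in 87 and 103 in D2. The 87 rise is the one that needs the shared spread: fitted on its own 6 libraries it had the same size, 5.20, and an adjusted p of 0.0628. Without the 4 D2 libraries of doubtful sex label, 1 library was left in each D2 group, 20 in WT and 23 in CMD. The D2 value was then 7.72.

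Mymx, the smaller partner of Mymk in fusion, was also close to silent in WT muscle, with fewer reads than Mymk in B6, 67 and 87 and 23 reads of each in D2. B6 WT had 0, 1 and 0 reads against 70, 89 and 103 in B6 CMD, and 67 WT had 0, 3 and 0 against 299, 182 and 245. In 87 the reads were 4, 1 and 1 against 30, 265 and 393, and in D2 3, 8 and 12 against 184, 458 and 440. Every CMD library again lay above every WT library of its strain. With 1 and 3 WT reads, the ratio was 219 in B6 (95% counting interval 39.0 to 8698) and 209 in 67 (71.1 to 1014), both past the threshold (adjusted p = 0.000452 and 6.47e-05). The log2 fold change was 6.76 ± 0.87 in 87 and 5.21 ± 0.75 in D2 (adjusted p = 8.23e-05 and 0.0002). Counting intervals cover counting error, not the spread between libraries. Without the 4 D2 libraries of doubtful sex label, which leaves library 23 against library 20, the D2 value was 5.34.

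**Figure D1:**
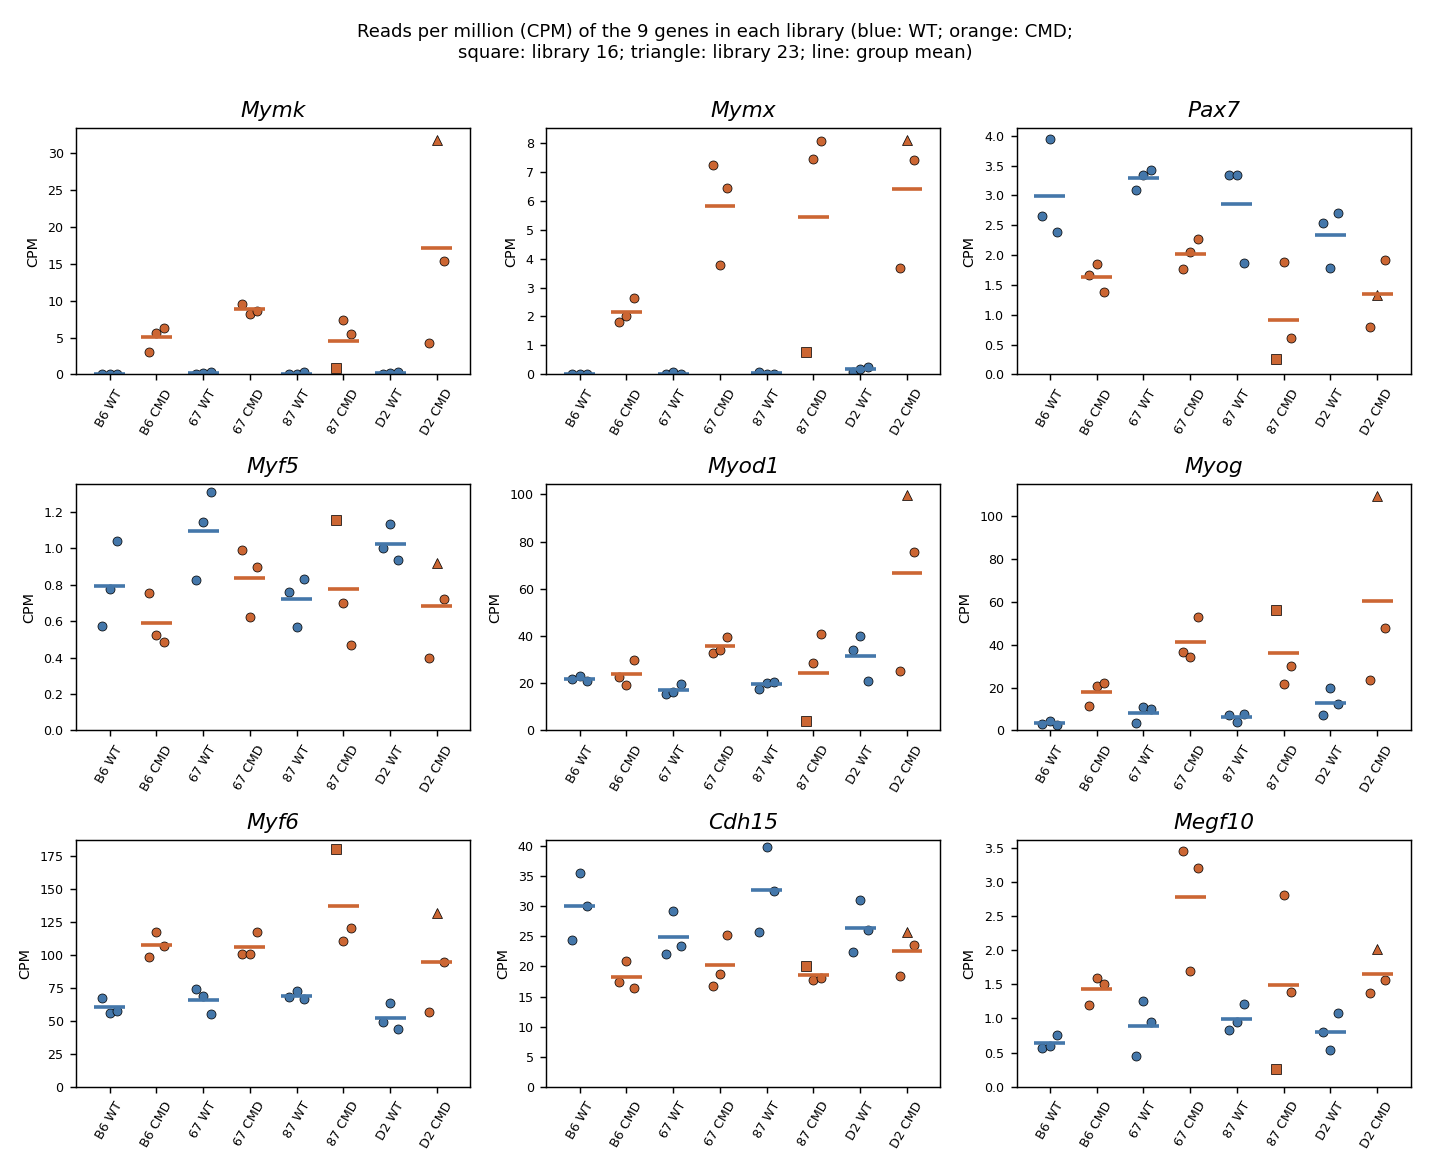
CPM (linear axes from 0) of each of the 9 genes in each of the 24 libraries, by group, with blue for WT, orange for CMD and a line at the group mean. Mymk and Mymx lie at the axis in WT and between 0.891 and 31.8 CPM and 0.787 and 8.10 CPM in CMD libraries, and library 16 (square) is the lowest CMD library for Mymk, Mymx, Myod1, Megf10 and Pax7 but the highest for Myf6.

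Myog, the factor that turns dividing myoblasts into differentiating ones, rose in all 4 strains. B6 WT libraries held 2.99, 4.43 and 2.59 CPM and B6 CMD libraries 11.6, 20.6 and 22.4 CPM. In 67 the libraries held 3.68, 10.9 and 10.1 CPM in WT and 36.6, 34.5 and 53.2 in CMD. In 87 they held 7.34, 3.86 and 7.48 CPM in WT and 56.5, 21.7 and 29.9 in CMD. D2 WT libraries held 7.25, 19.8 and 12.2 CPM, and D2 CMD libraries 23.5, 109.7 and 48.0. No groups overlapped within a strain, though the lowest D2 CMD library, 22, lay just above the highest D2 WT library, 20. On the log2 scale Myog rose by 2.45 ± 0.54 in B6, 2.33 ± 0.53 in 67, 2.53 ± 0.53 in 87 and 2.21 ± 0.52 in D2 (SE, adjusted p = 0.00558, 0.00443, 0.00266 and 0.00691). Library 23 had the highest Myog level of all. Without it the D2 change was 1.43 and did not pass (adjusted p = 0.0619), without both 16 and 23 it was 1.44 and passed (adjusted p = 0.0353), and without the 4 libraries of doubtful sex label it was 2.44 (adjusted p = 0.0675).

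Myf6, the family member of mature fibres, rose less, in all 4 strains. B6 WT libraries held 67.3, 55.9 and 57.1 CPM and B6 CMD libraries 98.0, 117.4 and 106.2. In 67 these were 74.2, 68.3 and 55.2 against 100.3, 100.5 and 117.3 CPM, and in 87 68.1, 72.6 and 66.3 against 179.8, 110.5 and 120.0 CPM. D2 WT held 49.0, 63.2 and 43.9 CPM, and D2 CMD 56.7, 131.4 and 94.7. The groups overlapped in D2, where library 22 lay below 1 WT library, and were apart in the other 3 strains. Myf6 changed on the log2 scale by 0.83 ± 0.23 in B6, 0.69 ± 0.23 in 67, 0.99 ± 0.23 in 87 and 0.86 ± 0.23 in D2 (SE, adjusted p = 0.0171, 0.0374, 0.00524 and 0.0136). These calls are less firm than those of Myog. The 67 call was lost in 18 of 35 recalculations, among them the leaving out of any 1 library of that strain (0.56 to 0.77, adjusted p = 0.0605 to 0.172). The B6 call was lost without library 2, 3 or 5 (adjusted p = 0.0625 to 0.0766) and the D2 call without library 19, 21 or 23 (0.52 without 23, adjusted p = 0.135). In fits of 1 strain alone, the adjusted p was 0.0638 in 87 and 0.0843 in D2, and without the 4 D2 libraries of doubtful sex label it was 0.0573 in D2.

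Myod1 and Myf5, the factors of activated satellite cells and myoblasts, did not pass the threshold in any strain. Myod1 held 21.6, 23.3 and 20.8 CPM in B6 WT and 22.6, 19.5 and 29.9 in B6 CMD, which overlapped. In 67 the WT libraries held 15.6, 16.5 and 19.9 CPM and the CMD libraries 32.9, 34.3 and 39.7, which did not overlap. In 87 they held 17.7, 20.1 and 20.7 CPM in WT and 4.04, 28.7 and 40.9 in CMD, so the CMD group straddled its WT group because of library 16. D2 WT held 34.2, 39.9 and 21.1 CPM, and D2 CMD 25.0, 99.6 and 75.5. The log2 fold change of Myod1 was 0.13 ± 0.50 in B6, 1.04 ± 0.51 in 67, 0.33 ± 0.50 in 87 and 1.07 ± 0.51 in D2 (SE, adjusted p = 0.884, 0.152, 0.690 and 0.135). Library 16 weighs on all of these through the shared spread. Without it the change in 87 was 0.83 (adjusted p = 0.134), and Myod1 passed in 67 (1.03, adjusted p = 0.0270) and D2 (1.05, adjusted p = 0.0243). Without both 16 and 23 it did not pass in D2 (0.65, adjusted p = 0.159). Without library 22 the D2 value was 1.46 (adjusted p = 0.0398). In a fit of 67 alone the change was 1.06 (adjusted p = 0.00182).

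Myf5 was low everywhere, between 0.400 and 1.31 CPM. WT libraries ran from 0.567 to 1.31 CPM with a median of 0.885, and CMD libraries from 0.400 to 1.15 with a median of 0.713. Its log2 fold changes lay between -0.58 ± 0.36 in D2 (adjusted p = 0.250) and 0.10 ± 0.36 in 87 (adjusted p = 0.888). All 3 D2 CMD libraries were below all 3 D2 WT libraries, while the groups of the other strains overlapped.

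Pax7, the marker of satellite cells, had lower mean levels in CMD muscle of each strain and passed the threshold in 87. B6 WT libraries held 2.65, 3.95 and 2.39 CPM and B6 CMD libraries 1.67, 1.84 and 1.37. In 67 the libraries held 3.09, 3.35 and 3.43 CPM in WT and 1.76, 2.05 and 2.26 in CMD. The 87 libraries held 3.34, 3.35 and 1.88 CPM in WT and 0.262, 1.88 and 0.615 in CMD. D2 WT held 2.54, 1.79 and 2.71 CPM, and D2 CMD 0.801, 1.33 and 1.92. The groups were apart in B6 and 67 and overlapped in 87 and D2. Pax7 changed on the log2 scale by -0.88 ± 0.44 in B6, -0.70 ± 0.44 in 67, -1.64 ± 0.46 in 87 and -0.79 ± 0.44 in D2 (SE, adjusted p = 0.173, 0.270, 0.0157 and 0.203). The fall in 87 did not hold without library 16 (-1.22, adjusted p = 0.0505), without library 18 (-1.44, adjusted p = 0.0537) or in a fit of that strain alone (adjusted p = 0.207). In a fit of 67 alone, Pax7 passed in 67 (-0.69, adjusted p = 0.0432). In bulk muscle, fewer cells of a type and less RNA per cell cannot be told apart, for Pax7 and for every gene here.

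Cdh15 fell in B6 and 87. B6 libraries held 24.4, 35.6 and 30.1 CPM in WT and 17.5, 20.9 and 16.4 in CMD, and 87 libraries 25.8, 39.8 and 32.5 in WT and 20.2, 17.7 and 18.1 in CMD. In 67 the values were 22.1, 29.3 and 23.5 CPM in WT and 16.8, 18.7 and 25.3 in CMD, and in D2 22.4, 31.0 and 26.0 against 18.4, 25.7 and 23.5 CPM. The groups were apart in B6 and 87 and overlapped in 67 and D2. Cdh15 changed on the log2 scale by -0.71 ± 0.19 in B6, -0.30 ± 0.19 in 67, -0.81 ± 0.19 in 87 and -0.23 ± 0.19 in D2 (SE, adjusted p = 0.0164, 0.287, 0.00637 and 0.406). The B6 call was lost without library 2, 3, 4 or 6 (-0.56 to -0.70, adjusted p = 0.0539 to 0.110), and the 87 call in a fit of that strain alone (adjusted p = 0.0806). Library 16 was the highest of the 87 CMD libraries for Cdh15, in contrast to Pax7.

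Megf10 rose in 67. Its 67 libraries held 0.453, 1.25 and 0.952 CPM in WT and 3.46, 1.70 and 3.21 in CMD, without overlap. B6 libraries held 0.571, 0.598 and 0.752 CPM in WT and 1.20, 1.59 and 1.50 in CMD, and D2 libraries 0.801, 0.531 and 1.08 in WT and 1.38, 2.02 and 1.57 in CMD, also without overlap. In 87 the CMD libraries held 0.262, 2.81 and 1.40 CPM around WT values of 0.834 to 1.21. Megf10 changed on the log2 scale by 1.65 ± 0.52 in 67 (SE, adjusted p = 0.0304) and 1.15 ± 0.54, 0.57 ± 0.52 and 1.03 ± 0.52 in B6, 87 and D2 (adjusted p = 0.138, 0.469 and 0.157). The 67 call was lost without library 7, 9, 10 or 12 (1.32 to 1.69, adjusted p = 0.0774 to 0.120) and without the 4 D2 libraries of doubtful sex label (1.64, adjusted p = 0.0502). Without library 16, Megf10 passed in B6 (1.17, adjusted p = 0.0294) and D2 (1.0026, adjusted p = 0.0446), and without both 16 and 23 it did not pass in D2 (0.85, adjusted p = 0.145).

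In B6, 4 of the 9 genes rose and 1 fell, where 8.07% of all tested genes rose and 10.4% fell. In 67, 5 rose, against 11.4% of all genes. In 87, 4 rose and 2 fell, against 11.5% and 9.38%. In D2, 4 rose, against 11.2%. By the main edgeR fit no member fell in 67 or D2, where 10.3% and 9.03% of all genes did. That was also the count at an unadjusted p under 0.05 and by DESeq2. In an edgeR fit of 67 alone 1 member fell, Pax7 (-0.69, adjusted p = 0.0432). All 3 CMD libraries lay above all 3 WT libraries for 5 members in B6, 6 in 67, 4 in 87 and 4 in D2, against 19.7%, 22.2%, 15.5% and 21.4% of all genes. They lay below for 2 in B6, 1 in 67, 1 in 87 and 1 in D2, against 21.6%, 21.8%, 15.1% and 21.5%. Mymk, Mymx, Myog and Myf6 are the members that rose in each strain.

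Averaged over the strains with equal weight, 8 of the 9 genes passed, 6 of them higher and 2 lower, where 48.8% of all genes passed, 25.4% higher and 23.4% lower. The mean log2 fold change was 6.74 ± 0.46 for Mymx, 6.08 ± 0.52 for Mymk, 2.38 ± 0.26 for Myog, 1.10 ± 0.26 for Megf10, 0.84 ± 0.11 for Myf6 and 0.65 ± 0.25 for Myod1 (SE). It was -1.0025 ± 0.22 for Pax7 and -0.51 ± 0.10 for Cdh15, and -0.33 ± 0.18 for Myf5, which did not pass (adjusted p = 0.140). The Pax7 and Megf10 averages thus passed (adjusted p = 0.00102 and 0.00179) although most of their single strains did not. The Myod1 average (adjusted p = 0.0404) was lost in 20 of 34 recalculations, at values of 0.49 to 0.69 (adjusted p = 0.0521 to 0.107).

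**Figure D2:**
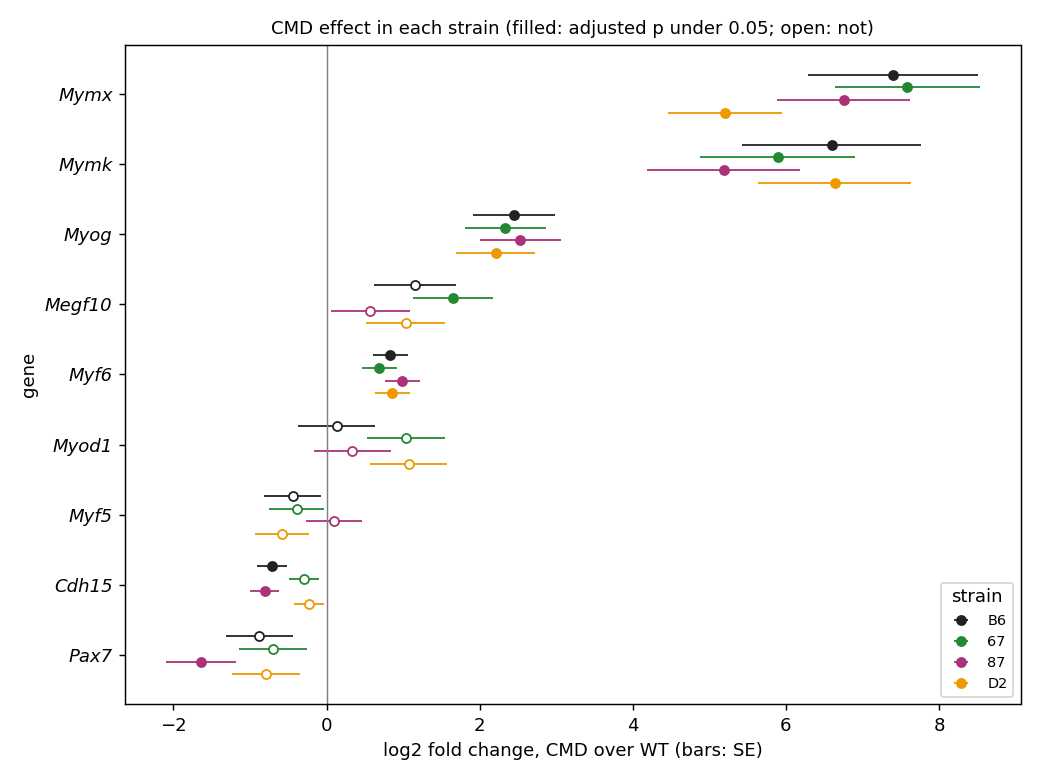
The log2 fold change of CMD over WT for each of the 9 genes in B6, 67, 87 and D2, with bars of 1 SE and filled points where the adjusted p was under 0.05. Mymx and Mymk lie between 5.19 and 7.58, Myog between 2.21 and 2.53.

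Whether the background changed the response was tested as a difference of the CMD effect among the 4 strains. No member passed this F test of edgeR (adjusted p = 0.318 to 0.981), where 4.67% of all genes did. The count was also 0 at an unadjusted p under 0.05 and by DESeq2. With 3 libraries per group this leaves wide room: the difference in the Mymx effect, D2 minus 67, was -2.38 with an adjusted p of 0.436. No member passed the F test among the WT groups (8.66% of all genes did) or among the CMD groups (28.3% did). Unadjusted, 2 members were under 0.05 in each, and DESeq2 called 2 in each, Mymx and Myog in WT and Myod1 and Myog in CMD.

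The groups were then put in order of their mean CPM. In CMD muscle the mean ran from D2 through 67 to 87 and B6 for Mymx, Myod1, Myog and Cdh15, and from D2 through 67 to B6 and 87 for Mymk. Myf6 had its highest CMD mean in 87 and Pax7, Myf5 and Megf10 in 67. Of the 6 pairs of CMD groups tested for each gene, 3 comparisons passed. Myog was higher in D2 than in B6 CMD muscle (1.73 ± 0.51 on the log2 scale, adjusted p = 0.0208), and so was Myod1 (1.48 ± 0.51, adjusted p = 0.0453), where 21.3% of all genes differed between these groups. Myod1 was also higher in D2 than in 87 CMD muscle (1.44 ± 0.51, adjusted p = 0.0351), where 34.3% of all genes differed. In WT muscle 1 of the comparisons passed: Myog was higher in D2 than in B6 (1.97 ± 0.53, adjusted p = 0.0272), where 7.38% of all genes differed. No other pair of strains differed past the threshold for any of the 9 genes, neighbours in the order included. Among all genes, the share that differed in CMD muscle was 0.811% between 87 and B6, 1.49% between 87 and 67 and 11.4% between D2 and 67. In WT muscle it was 0.0203% between 67 and B6, 0.0541% between 87 and B6, 0.0473% between 87 and 67, 10.7% between D2 and 67 and 6.86% between D2 and 87.

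These 4 differences leaned on single libraries. Myog in CMD muscle, D2 minus B6, did not pass without library 4 (1.46, adjusted p = 0.109), 5 (1.80, adjusted p = 0.0561) or 23 (0.95, adjusted p = 0.190). It also did not pass with sex as labelled in the fit (1.31, adjusted p = 0.0641). Without the 4 D2 libraries of doubtful sex label it was 2.56, a value of library 23 alone for D2 CMD. Myog in WT muscle, D2 minus B6, did not pass without library 1, 2, 3, 20 or 21 (1.55 to 2.24, adjusted p = 0.0535 to 0.128). Without those 4 it was 2.57, with library 20 alone for D2 WT. Myod1 in CMD muscle, D2 minus B6, was lost in 23 of 34 recalculations. It was 1.05 without library 23 (adjusted p = 0.192) and 2.02 without those 4. Against 87, Myod1 was 0.90 without library 16 (adjusted p = 0.0863) and 1.01 without 23 (adjusted p = 0.168). It was 1.51 without 17 (adjusted p = 0.0598) and 1.34 without 24 (adjusted p = 0.0953). Without those 4 it was 1.99, again with library 23 alone for D2 CMD.

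Levels of different genes were set side by side as TPM, the deposited values scaled by exon length. Myf6 had the highest level of the 9 genes in all 8 groups, from 84.9 ± 15.3 TPM in D2 WT to 197.8 ± 96.7 in D2 CMD (SD, n = 3). In WT muscle Myod1 came next in every strain, at 17.8 ± 2.03 TPM in 67 to 35.2 ± 10.9 in D2, and Mymk and Mymx stood at or under 0.335 TPM. In CMD muscle Mymk reached 6.11 ± 2.28 TPM in B6, 12.4 ± 1.17 in 67, 5.27 ± 3.84 in 87 and 30.9 ± 26.7 in D2. It thus stood above Pax7, Myf5 and Megf10 in every CMD group by its mean, and above Cdh15 in D2 (18.1 ± 4.99 TPM). Pax7 stayed near 1 TPM or below in all groups, at 0.274 ± 0.253 in 87 CMD to 1.07 ± 0.0252 in 67 WT.

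The level of Myog relative to Myod1 was higher in CMD libraries of each strain. As a ratio of TPM it was 0.155 to 0.237 in B6 WT and 0.641 to 1.32 in B6 CMD libraries, and 0.294 to 0.822 in 67 WT and 1.25 to 1.67 in 67 CMD. In 87 it was 0.239 to 0.517 in WT and 0.910, 0.940 and, in library 16, 17.4 in CMD. In D2 it was 0.264 to 0.718 in WT and 0.792 to 1.37 in CMD. The 12 WT libraries all had less Myog than Myod1, whereas 7 of the 12 CMD libraries had more Myog. The ratios of CMD and WT were apart within each strain, with or without library 16, and this was not tested. The ratio of Mymk to Mymx, TPM over TPM, lay between 0.458 and 2.67 in CMD libraries.

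**Figure D3:**
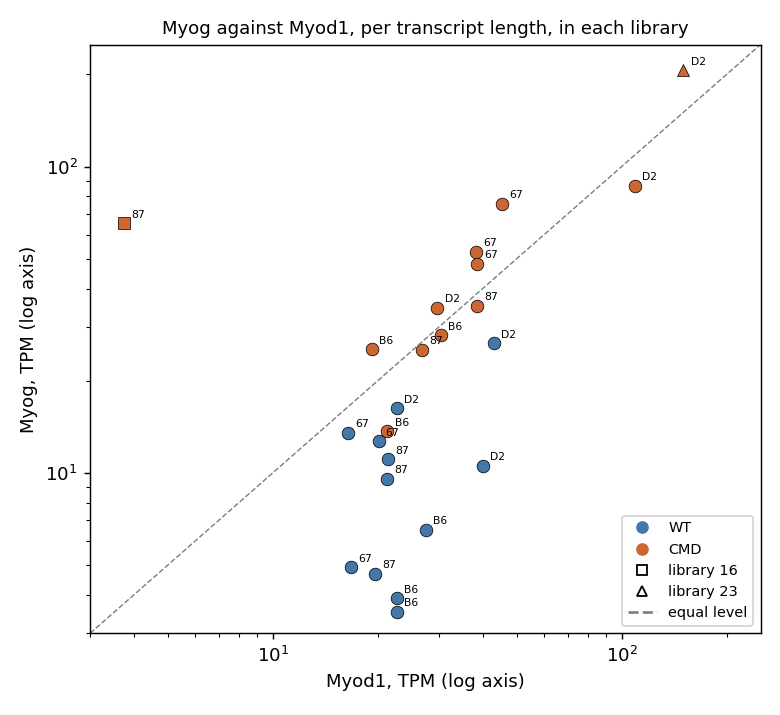
Level of Myog against that of Myod1 in TPM, both on log axes, for each library, with the strain beside each point and a dashed line where the levels are equal. The 12 WT libraries lie below the line, the CMD libraries lie around it, at higher Myog levels than WT libraries of their own strain, and library 16 (square) lies far to the left, at 65.4 TPM of Myog and 3.75 TPM of Myod1.

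Library 16 had a pattern of its own within the 87 CMD group. It held 154 Myod1 reads where libraries 17 and 18 held 1022 and 1994, 10 Pax7 reads against 67 and 30, 10 Megf10 reads against 100 and 68, and 34 Mymk reads against 262 and 265. Yet it held more Myog (2154 reads against 772 and 1458) and more Myf6 (6860 against 3933 and 5850). Its Mymk and Mymx levels were still above every WT library of any strain. Trim63, the muscle ubiquitin ligase raised in atrophy, was at 3815 CPM there and at 117.6 to 317.5 CPM in all other libraries, and the metallothionein gene Mt1 at 1180 CPM against 3.46 to 91.5. These genes were singled out after their values were seen, and their part in the results was not tested. Library 23 had the highest levels of Mymk, Mymx, Myod1 and Myog of all 24 libraries. Library 22 was the lowest of the D2 CMD libraries for these genes.

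Other genes of the same pathways were followed in 6 lists, which were drawn up with earlier results of these data known. Of 113 listed genes tested, 37 passed in B6 (32.7%), 38 in 67 (33.6%), 36 in 87 (31.9%) and 35 in D2 (31.0%), against 18.4%, 21.7%, 20.8% and 20.2% of all tested genes in either direction. Of these 22, 30, 25 and 29 rose. The number passing was 9 in 87 when its libraries were fitted alone, and 17 in D2 without the 4 libraries of doubtful sex label. It also fell without single libraries, in B6 to 23 without library 1, 16 without 2, 20 without 3, 13 without 5 and 21 without 6. In 87 it was 21 without library 15, and in D2 22 without library 20 and 23 without library 23 or 24.

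Genes of muscle differentiation had the highest median change of the 6 lists in every strain. The cell cycle list came close in B6 and D2, with medians of 0.82 and 1.04. Of 19 differentiation genes tested, 9 rose in B6, 11 in 67, 11 in 87 and 10 in D2. Among all tested genes 8.07%, 11.4%, 11.5% and 11.2% rose in the same order. The median log2 fold change of the differentiation list was 0.86, 2.24, 1.65 and 1.13. Over all tested genes it was 0.01, 0.00, 0.01 and 0.03. The 7 that rose in all 4 strains were the developmental myosins Myh3 and Myh8, the fetal receptor subunit Chrng, the acetylcholine receptor subunit Chrna1, the embryonic light chain Myl4, the cardiac-type troponin Tnnt2 and the adhesion protein Ncam1. Embryonic myosin Myh3 rose by 4.46 ± 0.88 in B6, 8.09 ± 1.09 in 67, 6.75 ± 1.05 in 87 and 4.25 ± 0.83 in D2 (SE). It was read at 0.0279 to 9.79 CPM in WT libraries and 7.10 to 291 CPM in CMD libraries. Chrng, at 0 to 0.416 CPM in WT libraries, was at 0.682 to 31.6 CPM in CMD libraries, the lowest being library 16. The genes of this list that fell were Mybph, a myosin-binding protein, in 67 (-1.97) and 87 (-1.45), and the creatine kinase Ckm in 67 (-1.20).

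Among 15 cofactors of the MyoD family, Runx1 and Klf5 rose and the coactivator Eya1 fell in all 4 strains. Runx1, a transcription factor raised in denervated and regenerating muscle, rose by 3.06 ± 0.38 in B6, 3.82 ± 0.39 in 67, 3.44 ± 0.38 in 87 and 3.90 ± 0.39 in D2 (SE). Eya1 fell by 0.79, 0.98, 0.64 and 0.87 on the log2 scale in the same order. Further falls in B6 included Carm1, Mef2a and Rbm24, which are named after their values were seen, as is Mybph above. Among 15 inhibitors of the family, Id2 and Id3, which bind its E-protein partners, rose in all 4 strains, Id2 by 1.70 in B6, 2.34 in 67, 2.21 in 87 and 2.45 in D2. Id1 rose in B6 (1.26), 67 (1.27) and 87 (1.20), and Twist1 fell in 67 (-1.09) and 87 (-1.54).

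Of 24 satellite cell genes, 2 rose and 3 fell in B6, 6 rose and 1 fell in 67, 3 rose and 2 fell in 87, and 5 rose in D2. Of all tested genes 8.07% rose and 10.4% fell in B6, 11.4% and 10.3% in 67, 11.5% and 9.38% in 87, and 11.2% and 9.03% in D2, so the counts in B6 and 87 were near the background. The median log2 fold change was 0.19, 0.27, -0.07 and 0.13. The basic helix-loop-helix gene Msc rose in all 4 strains, by 1.30, 2.04, 1.31 and 1.40. The Notch target Hes1 rose in B6 (1.01), 67 (1.51) and 87 (1.39), and the Notch ligand Dll1 in 67 (1.20) and D2 (1.25). Fgfr4, a growth factor receptor of myogenic cells, fell in B6 (-1.22) and 87 (-1.42). 

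Of 29 tested genes of fusion apart from Mymk and Mymx, 4 rose and 5 fell in B6, 5 rose in 67, 3 rose and 4 fell in 87, and 5 rose and 2 fell in D2, with medians of 0.15, 0.20, -0.06 and 0.40. Against the same shares of all genes, 8.07% and 10.4% in B6 and 11.5% and 9.38% in 87, the counts in 87 were near the background. Their changes were small beside those of Mymk and Mymx. Ptgfrn, a partner of tetraspanins, rose in all 4 strains, by 0.98 ± 0.24 in B6, 1.46 ± 0.24 in 67, 0.80 ± 0.24 in 87 and 0.69 ± 0.24 in D2 (SE). The tetraspanin Cd9 rose in B6 (0.87), 67 (1.04) and D2 (0.69). The receptor Cdon, which promotes myogenic differentiation at cell contacts, fell in B6 (-1.04) and 87 (-1.39), and the guanine exchange adaptor Elmo2 in the same strains (-0.58 and -1.07). Of 11 tested cell cycle genes, Mcm6, a subunit of the replication helicase, rose in all 4 strains (1.67 in B6, 2.47 in 67, 1.40 in 87 and 1.35 in D2). In all 2 of the 11 rose in B6, 3 in 67, 3 in 87 and 3 in D2, and Mcm2, another subunit of the helicase, fell in 87 (-1.14). The median of the list was 0.82 in B6, 1.03 in 67, 0.13 in 87 and 1.04 in D2, where 8.07%, 11.4%, 11.5% and 11.2% of all genes rose.

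**Figure D4:**
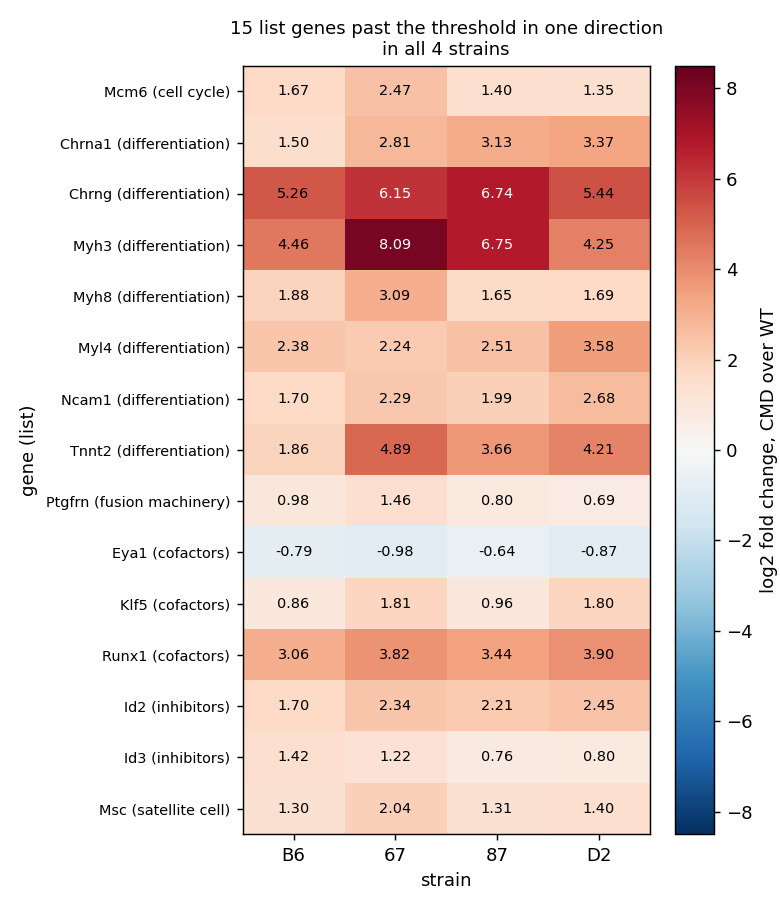
Log2 fold change of CMD over WT in each strain (columns) for 15 listed genes (rows) that passed the threshold in one direction in all 4 strains, with red for higher and blue for lower. Of these, 14 rose and Eya1 fell, and the values run from -0.98 for Eya1 in 67 to 8.09 for Myh3 in 67.

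Some markers of other cells changed with genotype too, and their part in the results above was not tested. The 6 macrophage markers summed to 53.6 to 161.5 CPM in WT and 76.1 to 341.5 CPM in CMD libraries, 5 Schwann cell markers to 20.8 to 60.5 and 25.4 to 293.9 CPM, and 5 lymphocyte markers to 1.58 to 5.34 and 2.46 to 17.2 CPM. Of the 6 macrophage markers 0 passed in B6, 2 rose in 67, 1 in 87 and 3 in D2. In 87 the macrophage marker that rose was the only one with a positive value (median log2 fold change -0.44). Of the 5 Schwann cell markers 2 rose in D2 and 0 passed in B6, 67 or 87. Of 4 tested lymphocyte markers 1 rose in each of B6, 67 and D2, and 0 passed in 87. Among all genes 8.07% rose in B6, 11.4% in 67, 11.5% in 87 and 11.2% in D2. The summed fibre markers were lower in CMD, at 92020 to 157200 CPM against 150500 to 204600 CPM in WT. Single markers were more mixed. Of the 8, 2 fell in B6, 4 fell and 1 rose in 67, and 1 fell and 2 rose in 87. In D2, 0 passed and 4 of the 8 had a positive value (median log2 fold change -0.12). Over all strains, 6 fibro-adipogenic markers summed to 313.3 to 746.3 CPM in WT and 149.3 to 1028 in CMD, 5 endothelial to 141.6 to 270.1 and 114 to 250.7, 4 adipocyte to 93.6 to 864.9 and 105.5 to 1502, and 4 tenocyte to 46.3 to 165.6 and 7.94 to 300.1. Within strains some groups were apart, and not always the same way. Macrophage sums were higher in 67 CMD (137.8 to 216.3 against 61.15 to 98.2 CPM in WT). Lymphocyte sums were higher in CMD of B6 (5.05 to 5.90 against 1.58 to 4.23 CPM) and 67 (4.16 to 7.44 against 2.51 to 2.96). The same held in D2 (4.1 to 17.2 against 2.24 to 3.49 CPM). Fibro-adipogenic sums in CMD were lower in 87 (149.3 to 405.7 against 414.3 to 505 CPM in WT) and higher in D2 (666 to 1028 against 313.3 to 520.2) and 67 (619.3 to 759 against 374.1 to 570.2). Tenocyte sums were lower in 87 CMD (7.94 to 31.1 against 46.3 to 111 CPM), endothelial sums were higher in B6 CMD (199.5 to 250.7 against 165.8 to 176 CPM) and lower in D2 CMD (175.9 to 205.6 against 206.1 to 270.1), and adipocyte sums were higher in 67 CMD (328.5 to 398.1 against 163.3 to 246.6 CPM). No marker was at 0 in all libraries of a group except the lymphocyte gene Cd3g in B6 WT.

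Likeness of pattern was measured as Pearson's r of log2 CPM over the 24 libraries, which share groups and strains. Mymk was most like Mymx (r = 0.95), Sox11 (0.948) and Ripply1 (0.944), and Mymx most like Rrad (0.977), Krt18 (0.957) and Aif1l (0.956). Myog was closest to Plekhh1 (0.92), Arl6ip5 and Junb (both 0.914), and Myf6 to Rbbp4 (0.917), Hprt (0.912) and H3f3b (0.893). Myod1 went with Spag1 (0.882), Dll1 (0.881) and Sbk1 (0.857), and Pax7 with Sec14l5 (0.883), Mypop (0.873) and Zfp239 (0.864). Cdh15 was closest to Ap3s2 (0.83), Prpf19 (0.826) and Atg9a (0.825), and Megf10 to Slc7a15 (0.834), Ccdc141 (0.82) and Cemip (0.812). Myf5 was closest to Mbtps2 (0.786), Tmf1 (0.755) and Psip1 (0.752). The lowest in level of these neighbours were Slc7a15, Ripply1 and Cemip (mean log2 CPM -3.08, -2.01 and -1.86), where r rests on few reads. Taken as deviations from group means, which removes genotype and strain, r between Mymk and Mymx was 0.568. It was 0.876 between Myod1 and Dll1, 0.059 between Myod1 and Myog, and 0.631, 0.401 and 0.395 between Mymx and Rrad, Krt18 and Aif1l. These values of deviations include library 16 and were not calculated without it. Leaving out library 16 raised r between Myod1 and Myog over all other libraries from 0.375 to 0.772, so the lower value over all 24 rests on 1 library.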

How the data were processed

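RNA was isolated with TRIzol and stranded mRNA libraries were sequenced as paired reads of 58 bases, per the labels. For each gene the authors deposited read counts (unique and total exon reads). They also deposited TPM and RPKM, which the authors scaled by exon length. RPKM was not used here, and TPM was used for levels of different genes. The genome build was GRCm39, per the submitters' processing notes, and the aligner is not given in the sources used here.

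Genes were kept by filterByExpr from total exon reads (at least 10 reads, 15 in all), scaled by TMM and fitted in edgeR 4.0.16 (R 4.3.3) with a term for each of 8 groups over 24 libraries. The test was glmQLFTest, adjusted over 14789 genes in each comparison. SE is the log2 fold change over the root of F. CPM use the TMM-adjusted library size. P-values measure the spread between these samples: the labels number them and do not say in words that each is a separate mouse. The method was tested on simulated data with known changes in B6 CMD. It recovered 47% of 100 genes changed 2-fold and 85% of 100 changed 4-fold, and 1.49% of its calls were false. Changes near 2-fold can thus be missed. Apart from the set changes, the simulated counts had the same mean level in all groups. They held no strain differences and no library that stood apart. The recovered and false shares may thus not hold for the measured libraries. A floor of 3 counts stands for 0 reads, and counting intervals are exact, at 95%.

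The members and lists were chosen with earlier results of these data known. Named genes were the 9 members, the 3 largest changes of each list and strain past the threshold (mean log2 CPM of at least 0), list genes called in all 4 strains, the 3 most correlated genes of each member, markers and Lama2. Other list genes are named where few passed, after their values were seen. Alternatives were sex as labelled or from Y-linked reads, no filter or a minimum of 30, RLE or no scaling, DESeq2 1.42.0, single-strain fits, unique reads, a 2-fold minimum, leaving out each library or 16 and 23, and, added after the data were seen, leaving out the 4 D2 libraries of doubtful sex label. Of 20 listed differentiation genes 1 was not found, and Kirrel1 was matched as Kirrel. Some list genes are counted but not reported here by name.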

Additional observations from a re-analysis of the deposited data

Results flagged for a closer look

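The listed genes named for their size or for passing in all 4 strains were searched, with the members, for a differing CMD effect. By the F test of edgeR among the 4 strains, 3 of these listed genes differed, where 4.67% of all tested genes did. The searched genes had been picked by their fold changes in these same libraries, and the other listed genes were not searched. The 3 are thus not a share of all listed genes and cannot be weighed against the share of all genes. Their tests were not repeated without library 16. Vcam1, an adhesion receptor of satellite cells and endothelium, had an adjusted p of 0.0185, and its log2 fold change was 0.43 in both B6 and 67, -0.72 in 87 and, in D2, 1.25. Snai1, a repressor that competes for E boxes, had an adjusted p of 0.0291, with 0.60 in B6, 0.63 in 67, -0.45 in 87 and 1.50 in D2. Twist1, an inhibitor of the MyoD family, had an adjusted p of 0.0436, with -0.79 in B6, -1.09 in 67, -1.54 in 87 and 0.60 in D2. Values were highest in D2 and lowest in 87 for these 3 genes. All 9 myogenic members missed the threshold in the same test.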

How the results depend on the processing

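No paired analysis was possible because the libraries are numbered from 1 to 24 and no groups share a number. Of 2620 recalculations of 76 member results, 2485 kept the call, 103 lost it, 32 gained it and 0 of them reversed a called direction. Of the 36 effects of CMD in single strains, 21 kept their call in every alternative tried. The number of genes called in all was 2724 in B6, 3210 in 67, 3083 in 87 and 2986 in D2, and 1555 genes differed among strains with sex as labelled and 1734 by DESeq2, against 690. WT levels differed for 1281 genes, for 2014 without libraries 16 and 23 and for 2172 by DESeq2. Fitted alone, 87 gave 355 genes and 9 list genes, where 3060 genes had an unadjusted p under 0.05. A minimum of 2-fold left 932 genes in B6, 1504 in 67, 1289 in 87 and 1413 in D2, and 20 and 22 list genes in B6 and D2. Without the 4 D2 libraries of doubtful sex label, 807 genes and 17 list genes were called in D2, and 37, 99 and 948 genes differed among strains in the CMD effect, the WT level and the CMD level (from 4184 for the last). With library totals alone the median of all genes moved by 0.13 in B6, 0.26 in 67, -0.02 in 87 and 0.27 in D2, and the share of calls that rose went from 43.8% to 63.1%, from 52.6% to 83.9%, from 55% to 51.9% and from 55.3% to 88.6%. The same numbers of members were called in each direction under library totals and RLE in every strain.

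Leaving out each library in turn gave 1139 to 3798 genes in B6 (the lowest without library 2, with fewer also without 3, 5 or 6), 1921 (without 9) to 4245 in 67, 1832 (without 15) to 3741 in 87 and 1511 (without 20) to 4268 in D2, the highest without library 16 in B6, 67 and D2. List genes ranged from 13 to 50, 30 to 46, 21 to 40 and 22 to 42. The CMD effect differed among strains for 356 (without 21) to 1168 genes (without 18), the WT level for 562 (without 21) to 1963 (without 16) and the CMD level for 2388 (without 24) to 5276 (without 18). The average change of Myf5 passed without library 16 (-0.44, adjusted p = 0.0399). The F test among CMD groups was passed by Myod1 without library 16, 18 or 22 (adjusted p = 0.0171 to 0.0223), by Myog without 22 (0.0246), by Mymx without 16 (0.0232) and by Pax7 without 17 (0.0054). That among WT groups was passed by Mymx without 16 (0.0426) and by Myog without 23 (0.0482). Causes were not tested. Depth limits Mymk and Mymx in WT muscle, where a level under 3 reads cannot be told from 0.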

Other observations

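The 3 WT libraries without a Mymk read (1, 7 and 13, of B6, 67 and 87) are the 3 WT libraries with over 100 reads of 4 Y-linked genes (3451, 4184 and 5407). The other 9 WT libraries, with 0 to 18 such reads, held 1 to 16 Mymk reads, and all 3 D2 WT libraries are among them. This was noticed after the values were seen and was not tested. D2 WT muscle held 3, 8 and 12 Mymx reads, where the other WT libraries held 0 to 4, and the WT level of Mymx, D2 minus B6, was 3.76 on the log2 scale (adjusted p = 0.125).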
